A study of Mus musculus with 21 samples.

Results

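Phenylalanine and tryptophan each depend on a single nuclear tRNA anticodon, and the 7 nuclear tRNA species that carry these anticodons were followed here across 2 brain regions and 2 genotypes. They were taken as all rows of the deposited count tables named Phe- or Trp- that were not marked mitochondrial: Phe-GAA-1, Phe-GAA-2-1 and Phe-GAA-3-1 for phenylalanine, and Trp-CCA-2-1, Trp-CCA-3, Trp-CCA-5-1 and Trp-CCA-6-1 for tryptophan. Such species share an anticodon but differ elsewhere in the sequence and are called isodecoders. They made up 7 of the 209 tRNA rows measured in cerebrum and 7 of the 208 measured in cerebellum, and all 7 were abundant enough to be tested in both tissues. The sum over isodecoders was followed for each anticodon as well.

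The mutant mice carried a Polr3a mutation, and mutant and wildtype mice alike were C57BL/6J animals that received tamoxifen. RNA polymerase III makes the nuclear tRNAs, Polr3a is the gene of its largest subunit, and the series is titled as a mouse model of a Polr3-related disease. Tamoxifen induced recombination at postnatal day 28, and cerebrum and cerebellum were frozen at day 42. The comparison therefore covers 4 libraries of mutant cerebrum against 6 of wildtype cerebrum, and 5 libraries of mutant cerebellum against 6 of wildtype cerebellum. Both sexes were used, in a mix that differed by genotype. Mutant cerebra were 2 female and 2 male, mutant cerebella 3 female and 2 male, and wildtypes of either tissue 2 female and 4 male. The labels name neither the allele nor the driver of recombination. They also do not say that each library is a separate animal, and the spread behind every p-value is that between libraries, which may be technical.

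The GAA anticodon reads both phenylalanine codons, UUU and UUC, the first of them through wobble, and the CCA anticodon reads UGG, the only tryptophan codon. No other nuclear tRNA can take over these codons, whereas most amino acids have several anticodons. RNA polymerase III transcribes each gene copy separately from promoter elements inside the gene, and cytosolic phenylalanine tRNA is known for wybutosine, a bulky modified base beside the anticodon. Mitochondria use tRNAs of their own for both amino acids, which are transcribed from mitochondrial DNA by a different polymerase and so serve here as partners that RNA polymerase III does not make.

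RefSeq lists 7 phenylalanine GAA genes of 73 bases and 8 tryptophan CCA genes of 72 bases in the mouse genome (GRCm38.p6). The phenylalanine genes lie on chromosomes 5, 10, 13, 14 and 19, and the tryptophan genes on chromosomes 10, 11 and 13. None of the 15 overlaps a gene of the GENCODE annotation, although n-TFgaa3 (chr10:80248964-80249036) lies 85 bases from Ndufs7, a subunit of respiratory complex I, and n-TWcca2 (chr10:91181412-91181483) lies 97 bases from Tmpo, which encodes nuclear lamina proteins. The isodecoder names of the count tables could not be tied to single RefSeq genes. The sequences of the nuclear members are not shown. The mitochondrial partners are shown because their levels are set beside the nuclear ones below. Both are on the plus strand of the mitochondrial chromosome in GRCm38 (mm10), mt-Tf at chrM:1-68 and mt-Tw at chrM:4950-5016, and capitals mark the anticodon, which a pairing search placed at positions 33 to 35 of mt-Tf and 32 to 34 of mt-Tw, counted from the 5′ end.
Phe-GAA-MT (mt-Tf): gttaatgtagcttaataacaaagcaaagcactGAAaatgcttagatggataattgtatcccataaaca
Trp-TCA-MT (mt-Tw): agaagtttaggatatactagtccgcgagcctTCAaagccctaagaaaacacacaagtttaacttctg
The mitochondrial phenylalanine tRNA has the same anticodon as the nuclear one. The mitochondrial tryptophan tRNA carries TCA, which also reads UGA, a tryptophan codon in mitochondria.

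The libraries held 4365247 to 7614658 counts in cerebrum and 1628057 to 7158467 in cerebellum. Cerebellum libraries fell into a shallow class of 1628057 to 2286338 counts, with mutant 1 and wildtypes 1, 2, 3, 4 and 6, and a deep class of 4884664 to 7158467 counts, with mutants 2 to 5 and wildtype 5, so depth and genotype were nearly confounded in that tissue. Mitochondrial tRNAs made up 12.8% to 15.7% of tRNA counts in mutant cerebrum and 10.4% to 11.7% in wildtype cerebrum, and 14.0% to 21.2% in mutant cerebellum and 12.5% to 14.4% in wildtype cerebellum. A tRNA library measures no marker genes and no Polr3a mRNA, so neither the tissue nor the genotype labels could be checked in these counts. In bulk tissue, fewer cells of a type and less RNA per cell cannot be told apart.

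Both families were dominated by a single isodecoder. Phe-GAA-1 held 85.8% to 88.0% of Phe-GAA counts in wildtype cerebrum, and Trp-CCA-5-1 held 74.2% to 77.5% of Trp-CCA counts there. Phe-GAA-2-1, Phe-GAA-3-1 and Trp-CCA-2-1 had at least 3643, 7816 and 6752 counts in every cerebrum library and 2019, 2544 and 3715 in every cerebellum library, whereas Trp-CCA-3 and Trp-CCA-6-1 were traces, with 6 to 39 and 18 to 80 counts per cerebrum library and 11 to 40 and 19 to 127 per cerebellum library. Together, the Phe-GAA isodecoders made up 2.02% to 3.34% of nuclear tRNA counts in wildtype cerebrum and the Trp-CCA isodecoders 0.669% to 1.04%.

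In cerebrum, a minor isodecoder fell in each family while the dominant isodecoders did not pass the test. Phe-GAA-2-1 fell in the mutants to 0.646 times the wildtype level, and the trace species Trp-CCA-6-1 to 0.420 times. Phe-GAA-1, Phe-GAA-3-1, Trp-CCA-2-1, Trp-CCA-3 and Trp-CCA-5-1 did not pass, and neither did the sum of either anticodon. Levels are given as CPM, counts relative to the size of the library, scaled between libraries by the trimmed mean of M-values (TMM), a method that takes most tRNAs as unchanged, and each was tested with edgeR's quasi-likelihood test with Benjamini-Hochberg adjustment over all tRNAs of the tissue at a threshold of 0.05.

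Phe-GAA-2-1 had 606, 793, 673 and 774 CPM in mutant cerebra 1 to 4, against a lowest value of 825, a median of 1026 and a highest value of 1555 CPM in wildtype cerebra. Every mutant library lay below every wildtype library. Its log2 fold change was −0.63 ± 0.16 (SE), a ratio of 0.646, with an adjusted p of 0.00735 in edgeR's quasi-likelihood test. Its call held when any single library was left out and under each scaling tried.

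Trp-CCA-6-1 had 2.83, 5.15, 3.51 and 4.30 CPM in mutant cerebra 1 to 4, against a lowest value of 3.93, a median of 8.86 and a highest value of 16.0 CPM in wildtype cerebra. The groups overlapped, since wildtype 5 was as low as the mutants and the other wildtypes were above them. Its log2 fold change was −1.25 ± 0.34 (SE) with an adjusted p of 0.0116 in edgeR's quasi-likelihood test, and the call held when any single library was left out. At 18 to 80 counts per library this call rests on few reads, and the labels do not say how reads that match several similar isodecoders were counted.

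The dominant Phe-GAA-1 had 15994, 20366, 19121 and 21440.5 CPM in mutant cerebra 1 to 4, against a lowest value of 15841, a median of 19849 and a highest value of 24143 CPM in wildtype cerebra. Mutant 1 and wildtype 6 were the lowest libraries, and the groups overlapped over nearly their whole range. Its log2 fold change was −0.06 ± 0.13 (SE), with an adjusted p of 0.821 (edgeR).

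Phe-GAA-3-1 lay between the other phenylalanine isodecoders in its fold change. It had 1258, 1778, 1650.4 and 1707 CPM in mutant cerebra 1 to 4, against a lowest value of 1491, a median of 2000.4 and a highest value of 2457 CPM in wildtype cerebra. Mutants 2 to 4 lay above wildtype 6 but below the other wildtypes. The log2 fold change was −0.31 ± 0.14 (SE), with an adjusted p of 0.136 (edgeR).

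For tryptophan, Trp-CCA-5-1 had 4197, 6121, 6274 and 6891 CPM in mutant cerebra 1 to 4, against a lowest value of 4756, a median of 5509 and a highest value of 6627 CPM in wildtype cerebra. Mutant 1 was below all wildtypes and mutant 4 above all of them. The log2 fold change was 0.06 ± 0.14 (SE), with an adjusted p of 0.822 (edgeR). Trp-CCA-2-1 had 1239 CPM in mutant 1 and 1912 to 2024 CPM in the other mutants, against 1459.5 to 2137 CPM in wildtypes. Mutant 1 was again below all wildtypes and the other mutants lay within their range, with a log2 fold change of 0.02 ± 0.15 (SE, adjusted p = 0.958, edgeR). The trace Trp-CCA-3 had 1.26, 1.97, 3.88 and 1.17 CPM in mutants 1 to 4, against 1.78 to 6.19 CPM in wildtypes, and a log2 fold change of −0.80 ± 0.40 (SE, adjusted p = 0.171, edgeR).

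**Figure D1:**
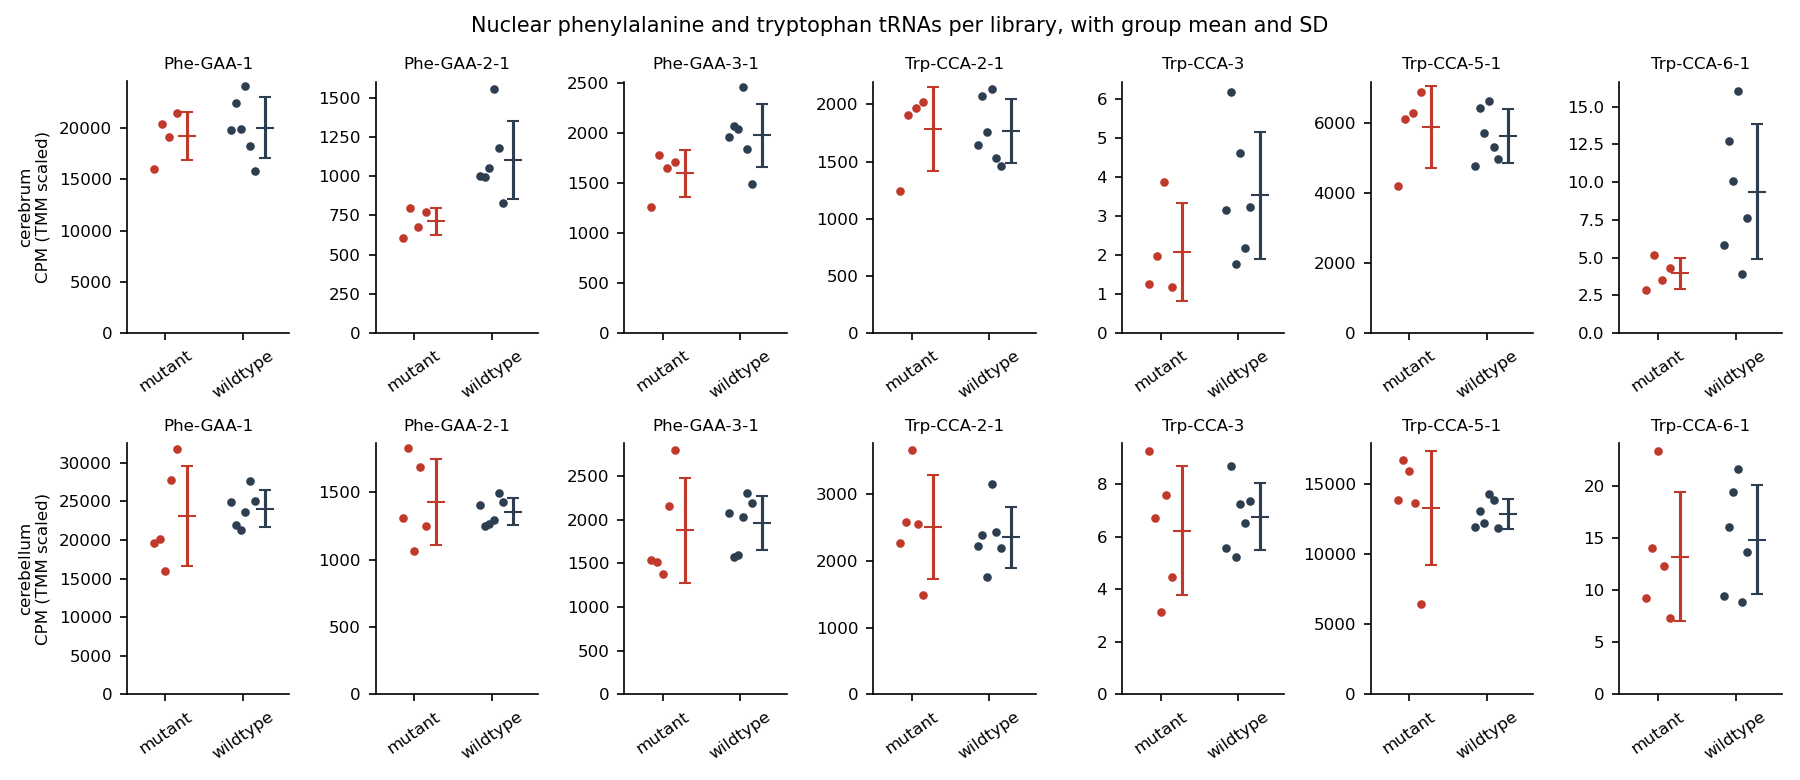
Level of each nuclear phenylalanine and tryptophan isodecoder (columns) in cerebrum (upper row) and cerebellum (lower row), in CPM scaled with TMM within a tissue; each point is a library, with mutants left in red and wildtypes right in dark blue, and the bar gives the mean and SD. The 4 mutant cerebra lie below all 6 wildtype cerebra for Phe-GAA-2-1 alone among the 7, and no such gap is seen in cerebellum.

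In all, 2 of the 7 members were called lower in mutant cerebrum and none higher, where 11.5% of the 208 tRNAs tested were called lower and 19.7% were called in either direction. In cerebrum CPM, 1 of the 7 lay wholly below the wildtypes, against 9.62% of all tRNAs. The median log2 fold change over the 7 members was −0.31, beside −0.07 over the 179 other nuclear tRNAs, of which 22 were called lower and 2 higher. Of 34 isodecoders from 6 further families that have a single nuclear anticodon (asparagine, aspartate, cysteine, histidine, tyrosine and elongator methionine), 5 were called lower and 1 higher. The lower calls were 3 of 6 elongator methionine and 2 of 5 tyrosine isodecoders. Counted with tyrosine, 4 of the 12 tRNAs for aromatic amino acids were called lower.

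At the level of whole anticodons, no difference between genotypes passed the test in cerebrum with TMM scaling. The Phe-GAA sum had 16467, 22426, 20804.5 and 23949 CPM in mutants 1 to 4, against a lowest value of 18259, a median of 23386 and a highest value of 29591 CPM in wildtypes. The Trp-CCA sum had 5016, 7860.3, 8007 and 8931 CPM in mutants, against a lowest value of 6321, a median of 7468 and a highest value of 9233 CPM in wildtypes. Both sums overlapped between genotypes, and mutant 1 was the lowest library in both. The log2 fold change was −0.18 ± 0.13 for Phe-GAA (adjusted p = 0.415) and −0.03 ± 0.14 for Trp-CCA (adjusted p = 0.940, SE, edgeR). Neither of the 2 sums was called, where 11.1% of the 72 anticodons tested were. The 95% interval of the log2 fold change reached −0.45 to 0.09 for Phe-GAA and −0.31 to 0.26 for Trp-CCA, so smaller falls than these could not be told from no change.

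The mitochondrial partners did not share a pattern in cerebrum. Trp-TCA-MT had 39886, 27046, 23050.3 and 22606 CPM in mutants 1 to 4, against a lowest value of 18302, a median of 19725 and a highest value of 24181 CPM in wildtypes. Mutant 1 was highest by far and mutants 3 and 4 overlapped with the wildtypes. Its log2 fold change was 0.48 ± 0.15 (SE, adjusted p = 0.0296, edgeR), and 15 of the 22 mitochondrial tRNAs were called higher with TMM scaling, with a median of 0.42. The call was lost with scaling to the mitochondrial total (0.08, adjusted p = 0.636), to the spike-in (0.09, adjusted p = 0.688) and by mitochondrial median of ratios (0.07, adjusted p = 0.779, edgeR). Phe-GAA-MT had a log2 fold change of −0.02 ± 0.14 (SE, adjusted p = 0.951, edgeR), and was called lower with scaling to the mitochondrial total (−0.41, adjusted p = 0.0141) and by median of ratios (−0.44, adjusted p = 0.0303, edgeR). Both partners are themselves part of the mitochondrial scales, which put the median mitochondrial tRNA at 0.03 and 0.01 by construction. Fits on those scales therefore only set each partner against the other mitochondrial tRNAs.

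How far the nuclear members were lower depended on what the libraries were scaled to. Scaling to the total of mitochondrial tRNAs, which another polymerase makes, moved the median of all 208 cerebrum tRNAs to −0.41 on the log2 scale, against −0.03 with TMM. With that scaling 5 of the 7 members were called lower in mutant cerebrum (edgeR), where 53.4% of all tRNAs were called. Phe-GAA-2-1 (−1.03 ± 0.17), Trp-CCA-6-1 (−1.64 ± 0.33), Trp-CCA-3 (−1.18 ± 0.39) and Phe-GAA-3-1 (−0.70 ± 0.16, SE) lay further below zero than the median of the nuclear tRNAs, −0.46. Phe-GAA-1 (−0.45), Trp-CCA-2-1 (−0.37) and Trp-CCA-5-1 (−0.33) lay at or above that median. Trp-CCA-2-1 and Trp-CCA-5-1 stayed just short of the threshold, with adjusted p of 0.05002 and 0.0537 (edgeR). Scaling to the spike-in gave 4 of 7 members called lower, where 35.6% of tRNAs were called.

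Counted per 1000 mitochondrial tRNA counts, the Phe-GAA sum was 117, 159, 154 and 165 in mutant cerebra 1 to 4, against a lowest value of 153, a median of 209 and a highest value of 259 in wildtypes. Wildtype 6 was at the level of the mutants and the other wildtypes were above them. The fit with this scaling gave a log2 fold change of −0.50 ± 0.14 (SE, adjusted p = 0.00475, edgeR), and 36.1% of anticodons were called. The Trp-CCA sum was 35.5, 55.8, 59.1 and 61.6 per 1000 in mutants, against 54.0 to 80.7 in wildtypes, with a log2 fold change of −0.34 ± 0.14 (SE, adjusted p = 0.0558, edgeR). The share of mitochondrial tRNAs moves with genotype as given above, and whether the mitochondrial or the nuclear level differed per cell was not tested.

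**Figure D2:**
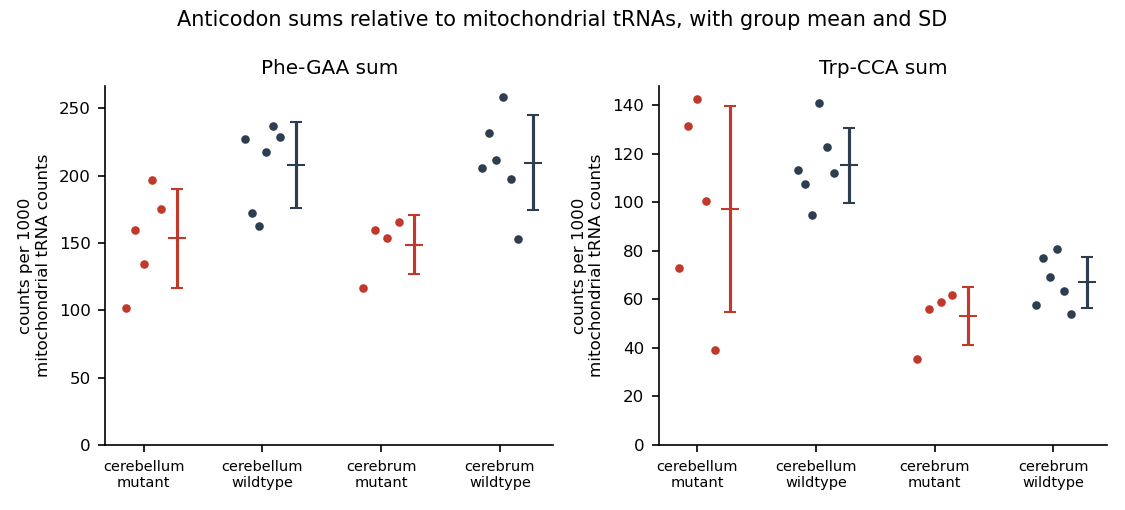
Phe-GAA sum (left) and Trp-CCA sum (right) in counts per 1000 mitochondrial tRNA counts; each point is a library, with mutants in red left of wildtypes in dark blue within each tissue, and bars give the mean and SD. For Phe-GAA the mutant cerebra sit between 117 and 165 and the wildtype cerebra between 153 and 259; cerebellum mutant 5 is the lowest cerebellum library for Trp-CCA, at 38.9.

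In the authors' deposited table, whose cerebrum mean levels lay within 0.448% of counts scaled with mitochondrial median-of-ratios size factors, all 7 members and both sums had an adjusted p below 0.05 in cerebrum. The share of all tRNAs below 0.05 among the authors' values is not given here, so this count is no trait of the members. The authors' deposited table gave log2 fold changes of −0.52 for Phe-GAA (adjusted p = 0.003) and −0.37 for Trp-CCA (adjusted p = 0.0421). The authors' deposited table of cerebrum isodecoders carries the opposite sign, wildtype over mutant: none of the 187 tRNAs compared had the sign of mutant over wildtype counts. Read that way, the 1.04 listed for Phe-GAA-2-1 in the authors' deposited table is a lower level in mutants. With the same kind of scaling, edgeR called all 7 members and both sums lower in cerebrum, where 56.2% of tRNAs and 45.8% of anticodons were called.

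Within the phenylalanine family the dominant isodecoder held a larger share in every mutant cerebrum than in any wildtype cerebrum. A share of the family's counts does not depend on how libraries are scaled. Phe-GAA-2-1 held 3.39%, 3.46%, 3.14% and 3.24% of Phe-GAA counts in mutant cerebra 1 to 4, against a lowest value of 3.91%, a median of 4.56% and a highest value of 5.55% in wildtypes. Phe-GAA-3-1 held 7.04%, 7.75%, 7.70% and 7.14% in mutants 1 to 4, against a lowest value of 8.13%, a median of 8.64% and a highest value of 8.88% in wildtypes. Phe-GAA-1 held 88.8% to 89.6% in mutants and 85.8% to 88.0% in wildtypes. For all 3 the genotypes did not overlap, as for 32.0% of the 178 isodecoder shares measured in cerebrum, so such a gap was common. Since the shares sum to the whole, a higher share of Phe-GAA-1 is the same observation as a lower share of the other two.

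The share differences were 2.58 percentage points for Phe-GAA-1, −1.44 for Phe-GAA-2-1 and −1.13 for Phe-GAA-3-1, each with p = 0.00952 in an exact two-sided permutation test, the smallest that the 210 splits of 4 and 6 libraries allow (adjusted over all isodecoders, p = 0.0297). In that test 4 of the 7 members passed, where 41.6% of all isodecoders did. In edgeR's model of each isodecoder relative to its family, Phe-GAA-2-1 was called lower (log2 change −0.37 ± 0.11 SE, adjusted p = 0.0132), though not without mutant 3 (adjusted p = 0.0586), while Phe-GAA-3-1 (−0.14 ± 0.10 SE, adjusted p = 0.466) and Phe-GAA-1 (0.03 ± 0.10 SE, adjusted p = 0.963) were not.

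In the tryptophan family the trace Trp-CCA-6-1 held 0.0521%, 0.0641%, 0.0425% and 0.0482% of Trp-CCA counts in mutants 1 to 4, against a lowest value of 0.0575%, a median of 0.127% and a highest value of 0.182% in wildtypes. Wildtype 5 overlapped with the mutants. Its log2 change within the family was −0.90 ± 0.23 (SE, adjusted p = 0.0043, edgeR). The large tryptophan isodecoders kept close proportions: Trp-CCA-2-1 held 22.7% to 23.9% in mutants and 22.4% to 25.6% in wildtypes. In all, 2 of the 7 members changed their share in cerebrum in edgeR's model, where 16.3% of 178 isodecoders did.

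**Figure D3:**
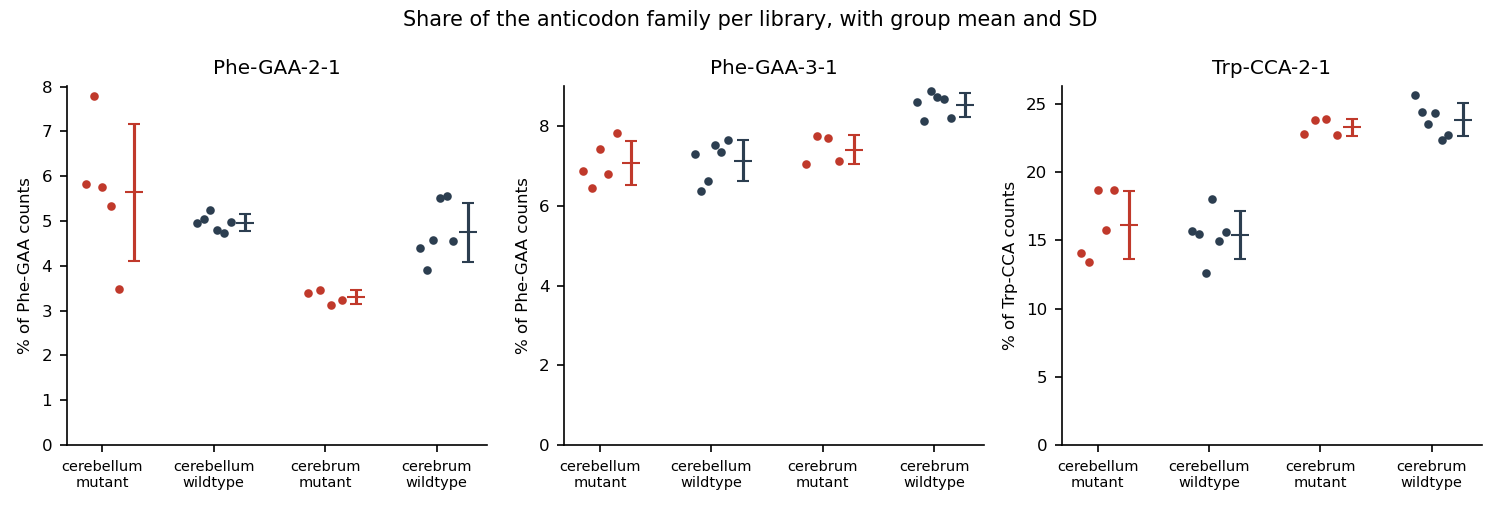
Share of the anticodon family, in percent of its counts, held by Phe-GAA-2-1, Phe-GAA-3-1 and Trp-CCA-2-1; each point is a library, with mutants in red left of wildtypes in dark blue within each tissue, and bars give the mean and SD. The mutant cerebra lie below the wildtype cerebra for both phenylalanine isodecoders, 3.14% to 3.46% against 3.91% to 5.55% for Phe-GAA-2-1, and Trp-CCA-2-1 holds a lower share in cerebellum than in cerebrum.

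In cerebellum no member passed the test. None of the 7 was called by edgeR with TMM scaling, where 2.48% of 202 tRNAs were called in either direction and 40 had an unadjusted p under 0.05, and none of these 40 was a member. All 7 log2 fold changes lay between −0.17 and 0.09. With scaling to the mitochondrial total, which moved the median of all cerebellum tRNAs to −0.37, all 7 were negative, between −0.52 and −0.21, and again none was called, where 26.2% of tRNAs were.

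Phe-GAA-2-1, lower in mutant cerebrum, had 1309, 1827, 1064, 1687 and 1246 CPM in mutant cerebella 1 to 5, against a lowest value of 1252, a median of 1351 and a highest value of 1492 CPM in wildtypes. Mutants 2 and 4 lay above all wildtypes and mutants 3 and 5 below them. The log2 fold change was 0.07 ± 0.14 (SE, adjusted p = 0.899, edgeR). Trp-CCA-6-1 had 7.30 to 23.3 CPM in mutants and 8.86 to 21.7 CPM in wildtypes, with a log2 fold change of −0.12 ± 0.31 (SE, adjusted p = 0.899, edgeR).

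The mutant cerebella varied more among themselves than the wildtypes. Phe-GAA-1 averaged 23057 ± 6481 CPM in mutants and 24068 ± 2336 CPM in wildtypes (SD, n = 5 and 6), and Trp-CCA-5-1 averaged 13314 ± 4057 CPM in mutants and 12858 ± 1033 CPM in wildtypes. Mutant 5 set much of that spread. It had 6453 CPM of Trp-CCA-5-1, where the other mutants had 13617 to 16716, and 31761 CPM of Phe-GAA-1, the highest cerebellum value. In percent of nuclear tRNA counts, Trp-CCA was at 0.930% in mutant 5 and at 1.96% to 2.31% in the other mutants.

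The Phe-GAA sum had 21465, 23695, 18509, 31448 and 32998 CPM in mutant cerebella 1 to 5, against a lowest value of 23348, a median of 29015 and a highest value of 31842 CPM in wildtypes. The Trp-CCA sum had 15463, 19508, 19638, 16102 and 7327 CPM in mutants, against a lowest value of 13597, a median of 15157 and a highest value of 18511 CPM in wildtypes. Mutants lay on both sides of the wildtypes for both sums. The log2 fold changes were −0.13 ± 0.14 (SE, adjusted p = 0.674) and 0.004 ± 0.186 (SE, adjusted p = 0.994) in edgeR, and none of the 71 anticodons tested, 0.00%, was called, with 17 at an unadjusted p under 0.05. Within the depth classes the Phe-GAA difference was −0.34 in the shallow class (1 mutant, 5 wildtypes) and −0.29 in the deep class (4 mutants, 1 wildtype) on the log2 scale, and that of Trp-CCA was 0.02 and −0.18.

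Both mitochondrial partners had positive values in mutant cerebellum, neither past the threshold with TMM scaling. So did all 22 mitochondrial tRNAs, at 0.01 to 0.53 on the log2 scale with a median of 0.34, and none was called. With scaling to the mitochondrial total their median was −0.04. Phe-GAA-MT averaged 28318 ± 5363 CPM in mutants and 19685 ± 3296 CPM in wildtypes (SD, n = 5 and 6), with a log2 fold change of 0.52 ± 0.14 (SE, adjusted p = 0.0514, edgeR). Trp-TCA-MT averaged 18806 ± 5086 CPM in mutants and 13125 ± 2054 CPM in wildtypes, with a log2 fold change of 0.52 ± 0.17 (SE, adjusted p = 0.1002, edgeR). Phe-GAA-MT passed with RLE size factors (adjusted p = 0.0361) and library totals (adjusted p = 0.0458) in edgeR and in DESeq2 (adjusted p = 0.00663), and Trp-TCA-MT passed in DESeq2 (adjusted p = 0.0229). The share of all tRNAs called in those fits is not given here, so these passes are no trait of the partners. With spike-in scaling both were near zero, at −0.03 and −0.03 on the log2 scale.

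**Figure D4:**
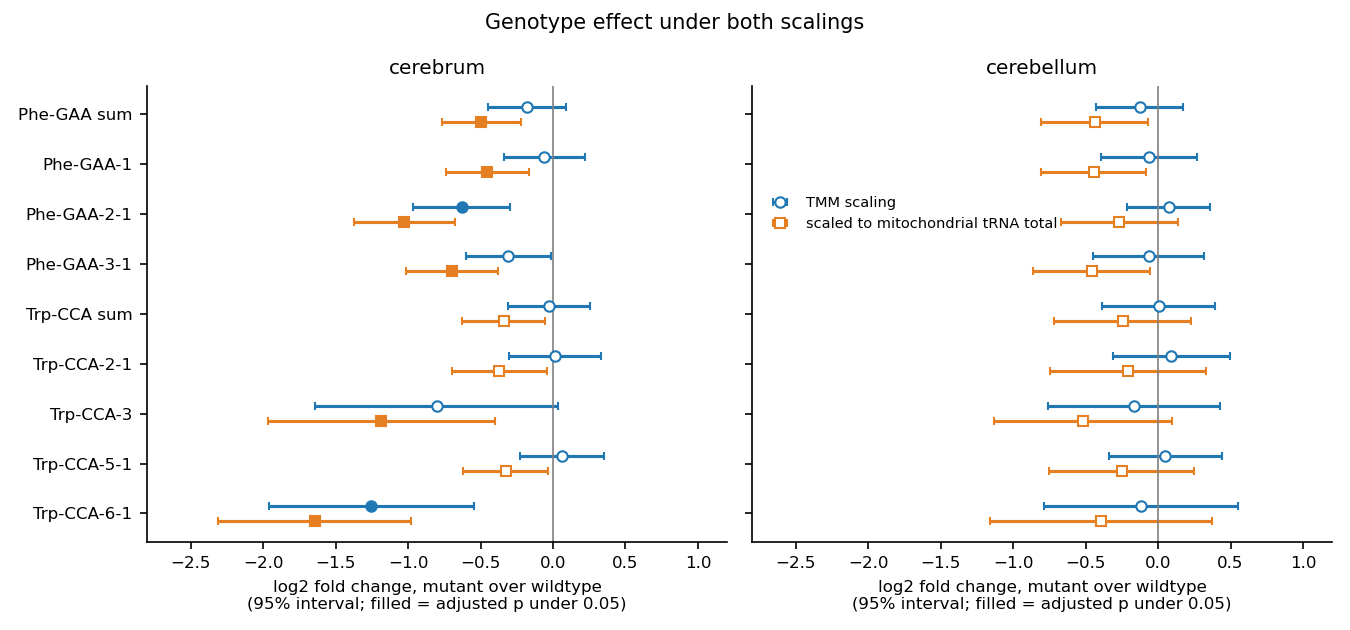
Log2 fold change of mutant over wildtype for each anticodon sum and isodecoder in cerebrum (left) and cerebellum (right), with the 95% interval; circles use TMM scaling, squares scaling to the mitochondrial tRNA total, and filled symbols have an adjusted p under 0.05. In cerebrum Phe-GAA-2-1 and Trp-CCA-6-1 are filled under both scalings, while Trp-CCA-2-1 and Trp-CCA-5-1 change sign between them, and no symbol is filled in cerebellum.

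Shares within families did not separate the genotypes in cerebellum either. Phe-GAA-2-1 held 5.84%, 7.78%, 5.76%, 5.33% and 3.48% of Phe-GAA counts in mutants 1 to 5, against a lowest value of 4.74%, a median of 4.97% and a highest value of 5.26% in wildtypes. Mutants 1 to 4 were above all wildtypes and mutant 5 was below them. None of the 7 members was called in edgeR's model of shares, where 3.47% of 173 isodecoders were and 18 had an unadjusted p under 0.05.

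Whether the genotype difference itself differed between tissues was tested in a joint fit of all 21 libraries, which takes the libraries of both tissues as independent. The labels do not say whether equal replicate numbers mark the tissues of 1 mouse. None of the 7 members passed (edgeR), where 4.90% of 204 tRNAs did, nor did either sum, where 1.39% of 72 did. Phe-GAA-2-1 came nearest, with a cerebellum minus cerebrum difference in log2 fold change of 0.68 ± 0.22 (SE, adjusted p = 0.0629). It passed when cerebellum mutant 3 (adjusted p = 0.0314), cerebellum mutant 5 (0.0275) or cerebrum wildtype 6 (0.0251) was left out, so single libraries decide that call, and it passed in DESeq2 (0.69, adjusted p = 0.0248). For Trp-CCA-6-1 the difference was 1.14 ± 0.49 (SE, adjusted p = 0.225), and for the sums it was 0.09 ± 0.19 for Phe-GAA and 0.07 ± 0.24 for Trp-CCA (SE, adjusted p = 0.968 for both). If same-numbered tissues of a genotype are instead taken as paired, Phe-GAA-2-1 (adjusted p = 0.0134) and Trp-CCA-6-1 (adjusted p = 0.0149) passed in edgeR, so the outcome depends on the unknown pairing.

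Between the tissues, which members differed and in which direction depended on the scaling. With TMM scaling, Trp-CCA-5-1 was 1.86 times as high in wildtype cerebellum as in wildtype cerebrum, whereas the other tryptophan isodecoders and all phenylalanine isodecoders did not pass the test. With spike-in scaling, Trp-CCA-5-1 did not differ past the threshold and the 3 phenylalanine isodecoders and Trp-CCA-2-1 were lower in cerebellum. On the scale of the joint fit, Trp-CCA-5-1 had a lowest value of 10446, a median of 11260 and a highest value of 12700.4 CPM in wildtype cerebella, against a lowest value of 4657, a median of 6299 and a highest value of 7245 CPM in wildtype cerebra. The tissues did not overlap, and 24.5% of tRNAs lay wholly higher in wildtype cerebella. The log2 fold change was 0.89 ± 0.16 (SE, adjusted p = 2.55e-05, edgeR). It was −0.01 ± 0.21 with spike-in scaling (SE, adjusted p = 0.955, edgeR) and between 0.86 and 1.19 in the other settings that kept all libraries.

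With TMM scaling this was 1 of 7 members called between tissues, where 71.1% of the 204 tRNAs were called and 33.3% were called higher. Trp-CCA-2-1 had a lowest value of 1505, a median of 2079 and a highest value of 2800.5 CPM in wildtype cerebella, against 1604, 1881 and 2336 CPM in wildtype cerebra. The tissues overlapped, and the log2 fold change was 0.12 ± 0.17 (SE, adjusted p = 0.533, edgeR). Phe-GAA-1, Phe-GAA-2-1 and Phe-GAA-3-1 had log2 fold changes of −0.03 ± 0.13, 0.003 ± 0.140 and −0.31 ± 0.15 (SE), with adjusted p of 0.833, 0.987 and 0.0756 (edgeR). Trp-CCA-3 (0.60 ± 0.31) and Trp-CCA-6-1 (0.32 ± 0.31) had adjusted p of 0.0896 and 0.363 (SE, edgeR).

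Per spike-in count, the Phe-GAA sum was 2.61 to 5.54 in wildtype cerebella and 6.83 to 13.3 in wildtype cerebra, and the Trp-CCA sum was 1.63 to 3.31 in wildtype cerebella and 2.42 to 4.15 in wildtype cerebra. The spike-in made up more of the cerebellum libraries, at 0.401% to 1.08% of counts, than of the cerebrum libraries, at 0.222% to 0.374%, and this scaling moved the median of all 204 tRNAs to −0.99 on the log2 scale, against −0.05 with TMM. In the joint fit with that scaling 4 of the 7 members were called, all lower in cerebellum, where 70.6% of tRNAs were called. The log2 fold changes were −0.95 ± 0.21 for Phe-GAA-1, −0.93 ± 0.22 for Phe-GAA-2-1, −1.22 ± 0.22 for Phe-GAA-3-1 and −0.80 ± 0.22 for Trp-CCA-2-1 (SE), with adjusted p of 1.99e-05, 5.5e-05, 9.35e-08 and 0.000445 (edgeR). The Phe-GAA sum was called lower (−0.97 ± 0.20 SE, adjusted p = 2.65e-06, edgeR) and the Trp-CCA sum was not (−0.17 ± 0.21 SE, adjusted p = 0.469, edgeR), where 69.4% of anticodons were called.

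With TMM scaling the anticodon sums followed their dominant isodecoders. The Trp-CCA sum had a lowest value of 12525, a median of 13943 and a highest value of 17174 CPM in wildtype cerebella, against 7267, 8181 and 10010.4 CPM in wildtype cerebra. Its log2 fold change was 0.78 ± 0.16 (SE, adjusted p = 5.22e-05, edgeR). The Phe-GAA sum differed by −0.02 ± 0.13 (SE, adjusted p = 0.885, edgeR), and 75.0% of the 72 anticodons were called between tissues. In percent of nuclear tRNA counts, Trp-CCA made up 1.51% to 2.15% in wildtype cerebella and 0.669% to 1.04% in wildtype cerebra. Wildtype cerebellum 5, the single deep wildtype library of that tissue, had 1.96%, within the range of the shallow ones. Tissue and count table coincide, so a difference between the tissues and one between the tables cannot be told apart.

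With TMM scaling the mitochondrial tryptophan tRNA ran the other way. On that scale 8 of the 22 mitochondrial tRNAs were called higher in wildtype cerebellum and 5 lower. Trp-TCA-MT had a lowest value of 10231, a median of 11078 and a highest value of 15104 CPM in wildtype cerebella, against 20009, 22215 and 23675 CPM in wildtype cerebra. Its log2 fold change was −0.91 ± 0.15 (SE, adjusted p = 5.31e-06, edgeR). Trp-TCA-MT stayed lower with spike-in scaling (−1.84 ± 0.22 SE, adjusted p = 1.17e-15, edgeR), where the nuclear Trp-CCA sum was negative too (−0.17, not called). Phe-GAA-MT was higher in cerebellum with TMM scaling, with a log2 fold change of 0.45 ± 0.13 (SE, adjusted p = 0.00247, edgeR), and lower with spike-in scaling (−0.47 ± 0.21 SE, adjusted p = 0.0361, edgeR).

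Among mutants, in CPM scaled with TMM, the tissues stood in the same order as in wildtypes for Trp-CCA-5-1, apart from a single library. Trp-CCA-5-1 had 12792, 15250.0, 15542, 12484 and 5815 CPM in mutant cerebella 1 to 5, against 4954, 6904, 7202 and 7926 CPM in mutant cerebra 1 to 4. Cerebellum mutant 5 fell among the cerebra and the other 4 were above them. Phe-GAA-2-1 had 1208, 1666, 1039, 1546 and 1123 CPM in mutant cerebella, against 715, 895, 772 and 890.0 CPM in mutant cerebra, without overlap, while in wildtypes the tissues overlapped. The same held for the trace Trp-CCA-6-1, at 6.58 to 22.8 CPM in mutant cerebella and 3.34 to 5.81 CPM in mutant cerebra. Among wildtypes 24.5% of tRNAs lay wholly higher in cerebella, and the share among mutants is not given here. These mutant tissue differences were not tested.

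**Figure D5:**
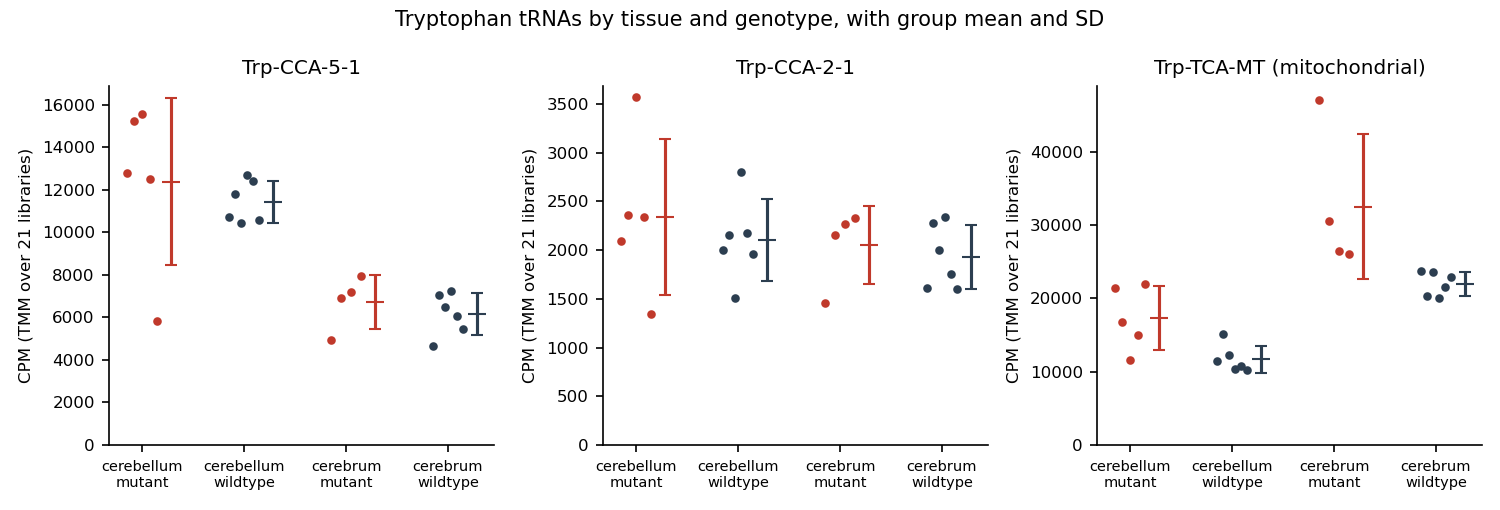
Trp-CCA-5-1, Trp-CCA-2-1 and the mitochondrial Trp-TCA-MT in CPM scaled with TMM over all 21 libraries; each point is a library, cerebellum groups stand left of cerebrum groups, mutants (red) left of wildtypes (dark blue), and bars give the mean and SD. Wildtype cerebella lie between 10446 and 12700.4 CPM for Trp-CCA-5-1 and wildtype cerebra between 4657 and 7245, the order is turned round for Trp-TCA-MT, and Trp-CCA-2-1 overlaps between tissues.

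The balance between both main tryptophan isodecoders differed between the tissues in either genotype. The ratio of Trp-CCA-5-1 to Trp-CCA-2-1 counts was 5.32 ± 0.978 in mutant cerebella, 5.57 ± 0.780 in wildtype cerebella, 3.29 ± 0.118 in mutant cerebra and 3.20 ± 0.212 in wildtype cerebra (SD, n = 5, 6, 4 and 6). The lowest cerebellum library, at 4.34, was above the highest cerebrum library, at 3.46. Within the family, the share of Trp-CCA-2-1 was lower in wildtype cerebella, at 12.6% to 18.0%, than in wildtype cerebra, at 22.4% to 25.6%. Its log2 change within the family was −0.43 ± 0.13 (SE, adjusted p = 0.00738, edgeR), a test chosen after the values were seen, and 26.4% of 174 isodecoders were called in it.

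Phenylalanine and tryptophan tRNAs did not resemble each other in their profiles, in large part through mutant cerebella 3 and 5. With each sum centred on the wildtype mean of its tissue, the root mean square difference between log2 CPM profiles over 21 libraries was 0.405 between Phe-GAA and Trp-CCA, rank 42 of 49 nuclear anticodons for Phe-GAA and rank 31 for Trp-CCA. The anticodons nearest to Phe-GAA were Ser-GGA (0.212), Val-CAC (0.242) and His-GTG (0.250). Those nearest to Trp-CCA were Ile-AAT (0.106), Ile-TAT (0.138) and Leu-CAA (0.143). In percent of nuclear tRNA counts, mutant cerebellum 5 had 4.19% Phe-GAA and 0.930% Trp-CCA, and mutant cerebellum 3 had 2.18% and 2.31%. Wildtype cerebella had 2.59% to 3.79% Phe-GAA and 1.51% to 2.15% Trp-CCA. The sums thus deviated in opposite directions in both mutants, and these libraries weigh heavily in the distance and its ranks. All these values are descriptions over libraries that share their scaling, with no test.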

How the data were processed

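QuantM-tRNA-seq, a tRNA library method, was applied to 21 samples. Tools named in the submitters' processing notes are DESeq2, featureCounts, Bowtie2 and cutadapt, with mm10; their versions and the handling of multiply matching reads are not given in the sources used. The authors deposited raw counts per tRNA for each tissue, and tables with a mean signal (counts over size factors), log2 fold changes, a test statistic (a score) and p-values, per the file headers.

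Counts were tested with edgeR 4.0.16 (limma 3.58.1, R 4.3.3): TMM, filterByExpr (minimum count 10), robust quasi-likelihood fits, Benjamini-Hochberg adjustment over all tRNAs, threshold 0.05. The bacterial spike-in row was kept out (0.222% to 0.374% of cerebrum and 0.401% to 1.08% of cerebellum counts). Shares were tested with edgeR's diffSpliceDGE, isodecoders within anticodons, and with exact permutation. The joint fit used the 204 tRNAs in both tables. Steps were tested on simulated counts. The lowest chi-square per degree of freedom between replicates was 44.3 over 46 pairs, so no library was a copy of another of its own tissue and genotype. Libraries of different groups were not compared in this way.

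All members and their sums are named, with mitochondrial partners, and lists are described by counts. The members and lists were chosen with earlier results of these data known. Alternatives were other scalings (RLE, library totals, mitochondrial total, spike-in), DESeq2 1.42.0, no filter, a mean count of 50, sex, depth class, a replicate block and leaving out each library. Mitochondrial median-of-ratios scaling, spike-in scaling and DESeq2 between tissues and the share test between tissues were added after seeing the data.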

Additional observations from a re-analysis of the deposited data

Results flagged for a closer look

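Trp-CCA-2-1 in cerebrum mutant 1 stood apart from its group, with 1239 CPM against 1912 to 2024 CPM in the other mutants. This was the only library so marked in 64 sets of member values, and chance marks about 1 in 20. The same library was the lowest mutant for Trp-CCA-5-1 and Phe-GAA-1 and had the highest Trp-TCA-MT.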

How the results depend on the processing

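The lower Phe-GAA-2-1 in mutant cerebrum passed edgeR's threshold, or that of DESeq2, under every alternative tried, with log2 fold changes of −1.05 to −0.57 over settings that kept all libraries. The higher Trp-CCA-5-1 and Trp-CCA sum of wildtype cerebellum over wildtype cerebrum were lost with spike-in scaling (−0.012 and −0.17) and passed under the other alternatives run. In mutant cerebrum, Trp-CCA-6-1 passed wherever it was measured (−1.66 to −1.19). Of 487 comparisons with an alternative that kept all libraries, 391 were labelled as the same. They cover values of members and sums, and also counts of calls, which have no direction. A count could carry that label though it shifted, as with 3 cerebrum calls in place of 2 with the replicate block. The limits are few counts for Trp-CCA-3 and Trp-CCA-6-1, 4 or 5 mutants a tissue, and a cerebellum in which depth and genotype nearly coincide. The cause of the changes below was not tested.

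The 2 calls in mutant cerebrum became 5 with mitochondrial total scaling, 4 with spike-in scaling and 7 with mitochondrial median-of-ratios scaling. With a minimum mean count of 50, which removes Trp-CCA-6-1, 1 call remained for levels and 1 for shares, and exact permutation of shares gave 4. The 2 cerebrum sums, not called with TMM, gave 1 call with mitochondrial total scaling (Phe-GAA −0.50) and 2 with median of ratios (Phe-GAA −0.53, Trp-CCA −0.38). Between wildtype tissues, library totals gave 2 calls in place of 1 and spike-in scaling 4, with Phe-GAA lower at −0.97. DESeq2 gave 1 call in place of 0 for genotype by tissue (Phe-GAA-2-1). There, 34 of 204 tRNAs had an unadjusted p under 0.05 in DESeq2, against 30 in edgeR with TMM. The shares of all tRNAs called with library totals, a mean count of 50 and DESeq2 are not given here, so these changes in calls cannot be set against them.

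Among the nuclear members and sums, apart from Trp-CCA-5-1 and the Trp-CCA sum between tissues, turns of sign were in values that did not pass with TMM. Spike-in, median-of-ratios and DESeq2 fits of the tissue comparisons were added after seeing the data. Spike-in scaling gave −0.93 (Phe-GAA-2-1), −0.80 (Trp-CCA-2-1), −0.32 (Trp-CCA-3) and −0.55 (Trp-CCA-6-1) between wildtype tissues, and −0.15 (Trp-CCA-2-1), −0.15 (Phe-GAA) and −0.26 (Trp-CCA) for genotype by tissue. Median of ratios gave −0.038 (Phe-GAA-2-1) between tissues and 0.058 (Phe-GAA-1) and 0.16 (Trp-CCA-5-1) for genotype by tissue, and DESeq2 0.016 (Phe-GAA-1) and 0.014 (Phe-GAA) between tissues. Mitochondrial total, spike-in and median-of-ratios scaling turned cerebrum Trp-CCA-2-1 to −0.37, −0.30 and −0.41 and Trp-CCA-5-1 to −0.33, −0.25 and −0.36. In the same order they turned cerebellum Phe-GAA-2-1 to −0.27, −0.52 and −0.20, Trp-CCA-2-1 to −0.21, −0.45 and −0.15, Trp-CCA-5-1 to −0.25, −0.54 and −0.19, and the Trp-CCA sum to −0.24, −0.53 and −0.18. The first also gave 0.0084 (Phe-GAA-1) and 0.077 (Trp-CCA-5-1) for the genotype by tissue difference and 0.0055 (Phe-GAA-1) between wildtype tissues. RLE size factors gave 0.0027 for cerebrum Phe-GAA-1, −0.00091 for the cerebellum Trp-CCA sum, and 0.016 (Phe-GAA-1) and 0.014 (Phe-GAA) between tissues. DESeq2 gave 0.0027 and −0.00089 for the first pair. Library totals gave 0.030 for the cerebrum Trp-CCA sum, and 0.26 (Phe-GAA-1) and 0.24 (Phe-GAA) between tissues. With depth class in the cerebellum fit, Phe-GAA-2-1 was −0.029, Trp-CCA-3 0.056, Trp-CCA-6-1 0.027 and the Trp-CCA sum −0.033, and the shares of Trp-CCA-2-1, Trp-CCA-3 and Trp-CCA-5-1 changed by −0.0091, 0.018 and 0.0012.

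The labels do not say what replicate numbers share, and the main fits did not use the numbers to pair samples. Not every pair correlated over 0.1, but this cannot decide whether same-numbered tissues came from 1 mouse. The sexes of same-numbered cerebrum and cerebellum libraries matched in 10 of 10 pairs. Same-numbered mutant and wildtype libraries correlated in their deviations at −0.28 to 0.56 in cerebrum (2 of 4 pairs over 0.1) and 0.024 to 0.22 in cerebellum (1 of 5), and the tissues at −0.21 to 0.064 in mutants (0 of 4) and 0.035 to 0.46 in wildtypes (4 of 6). With a replicate block, 3 of 7 members were called in cerebrum, with Phe-GAA-3-1 gained (−0.42, adjusted p = 0.00941), and 1 of 2 cerebrum sums (Phe-GAA −0.29). In edgeR with the block across tissues, 2 of 7 differed in genotype effect between tissues (Phe-GAA-2-1, adjusted p = 0.0134, and Trp-CCA-6-1, adjusted p = 0.0149), and 3 of 7 differed between wildtype tissues, with Phe-GAA-3-1 and Trp-CCA-3 gained. The share of all tRNAs called with the block is not given here, so whether these gains are particular to the members cannot be read from them. With the block, values of other sign were −0.11 and −0.014 for cerebrum Trp-CCA-2-1 and Trp-CCA-5-1, −0.035 and −0.082 for cerebellum Trp-CCA-5-1 and the Trp-CCA sum, 0.0071 for the cerebellum share of Phe-GAA-3-1, and 0.17 (Trp-CCA-5-1) and −0.049 (Phe-GAA) for genotype by tissue.

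Leaving out each library in turn, calls ranged over 1 to 2 for cerebrum shares, 0 to 1 for genotype by tissue, and 1 to 2 between wildtype tissues. The second wildtype tissue call was Trp-CCA-3 without cerebrum wildtype 2, and Phe-GAA-3-1 without cerebrum wildtype 6 or cerebellum mutant 5. Ranges that spanned 0 in cerebrum were −0.12 to 0.067 for Phe-GAA-1, −0.050 to 0.20 for Trp-CCA-2-1, −0.025 to 0.24 for Trp-CCA-5-1 and −0.13 to 0.12 for the Trp-CCA sum. In cerebellum they were −0.18 to 0.046 for Phe-GAA-1, −0.033 to 0.16 for Phe-GAA-2-1, −0.23 to 0.032 for Phe-GAA-3-1, −0.082 to 0.25 for Trp-CCA-2-1, −0.30 to 0.011 for Trp-CCA-3, −0.045 to 0.25 for Trp-CCA-5-1, −0.43 to 0.086 for Trp-CCA-6-1 and −0.12 to 0.20 for the Trp-CCA sum. For cerebellum shares they were −0.011 to 0.21 (Phe-GAA-2-1), −0.044 to 0.014 (Phe-GAA-3-1), −0.036 to 0.074 (Trp-CCA-2-1), −0.24 to 0.029 (Trp-CCA-3) and −0.014 to 0.0066 (Trp-CCA-5-1). For shares between wildtype tissues they were −0.0030 to 0.078 (Phe-GAA-2-1) and −0.20 to 0.053 (Trp-CCA-3). For genotype by tissue they were −0.16 to 0.065 (Phe-GAA-1), −0.13 to 0.22 (Trp-CCA-2-1), −0.18 to 0.16 (Trp-CCA-5-1), −0.043 to 0.18 (Phe-GAA) and −0.083 to 0.24 (Trp-CCA). Between wildtype tissues they were −0.089 to 0.029 (Phe-GAA-1), −0.067 to 0.13 (Phe-GAA-2-1) and −0.079 to 0.058 (Phe-GAA).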
